A study of Homo sapiens with 6 samples.

Results

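The S100 proteins and the annexins, which form the main families of small calcium sensors and calcium-dependent membrane-binding proteins, were examined in NCI-H1975, a line of human lung cancer cells of the non-small cell type. The members were the features of the deposited gene table whose Ensembl identifiers map to 30 listed symbols, 19 S100 genes and 11 annexins, among 60960 features in all. Bulk RNA sequencing gave 6 libraries in 2 groups, siNC (a control small interfering RNA; 3 libraries) and siGFPT2 (one directed at GFPT2; 3 libraries), and the stated aim was to find genes that differ between them. GFPT2 makes glucosamine-6-phosphate, the entry step of the hexosamine pathway. All cells were of 1 line, RNA was extracted with TRIzol and mRNA was taken on oligo(dT) beads. The protocol text shared by all 6 samples also speaks of almonertinib (an EGFR inhibitor), EGF and EGFR knockdown, agents that appear in no treatment label, so it is not known whether the cells of both groups received them. The labels do not say that the replicates were separate cultures, and p-values therefore reflect nothing beyond how far these samples differ, which may be technical.

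S100 proteins are small EF-hand proteins that mostly act as dimers: calcium binding exposes a surface through which they grip target proteins, and several are also secreted and act on cell-surface receptors. Annexins bind acidic phospholipids when calcium rises and take part in membrane repair, vesicle traffic and the organisation of the cell cortex. The families meet in defined complexes, of which S100A10 with ANXA2, S100A11 with ANXA1 and S100A6 with ANXA11 are well known, and S100A10 differs from the rest in that it holds its active shape without calcium.

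Depth lay between 21899321 and 27234880 counted fragments per library, as recovered from the FPKM values (fragments per kilobase of gene length, scaled to library depth). GFPT2 itself stood at 10.1, 9.30 and 8.28 FPKM in the siNC libraries and 8.94, 7.58 and 8.72 in siGFPT2, and the groups overlapped (log2 fold change -0.13 ± 0.13 SE; limma adjusted p = 1.00; exact two-sided permutation p = 0.4, where 0.1 is the smallest possible). The groups are therefore called by their labels, which the target's level does not check. Markers of the labelled epithelial line were present, with KRT19 at 517 and KRT7 at 429 FPKM on average. Of the 10 epithelial and lung adenocarcinoma markers listed, 2 were under 1 FPKM, NAPSA and SFTPB, while NKX2-1 averaged 29.9 FPKM. siNC replicate 3 and siGFPT2 replicate 2 stood apart from the other 4 libraries: short mRNAs were high and long mRNAs low in both. Slopes of library level on log2 gene length, the length recovered from the FPKM values, were -0.081 and -0.056 against 0.027 to 0.048 in the others. These 2 libraries bear on many values below.

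Of the 30 members, 21 averaged at least 1 FPKM across libraries and were tested, 12 of them S100 genes and 9 annexins. The members' FPKM values summed to 1244, 1194 and 2171 in siNC and 1294, 1835 and 1319 in siGFPT2 for the S100 genes, and to 528, 534 and 682 in siNC and 568, 653 and 593 in siGFPT2 for the annexins. In bulk RNA, fewer expressing cells and less RNA per cell cannot be told apart. In each family 3 genes made up most of the sum. S100A6, S100A10 and S100A11 held 92.7% of the S100 sum, and ANXA1, ANXA2 and ANXA5 held 81.4% of the annexin sum. By fragments the order of the families was the other way round, without division by length: annexins took 0.42% of all counted fragments and S100 genes 0.137%.

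**Figure D1:**
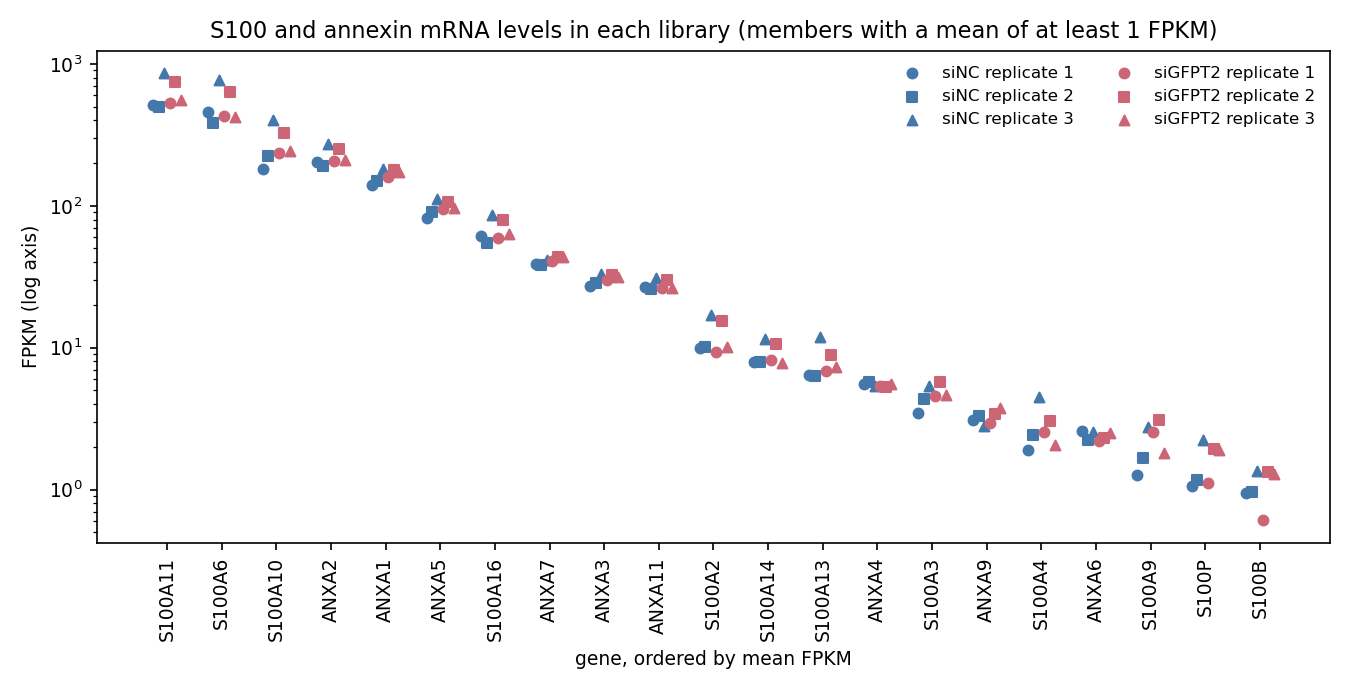
FPKM of the 21 tested S100 and annexin genes in each of the 6 libraries, on a log axis, ordered by mean level, with 1 point per library. Levels run from 615 FPKM on average for S100A11 to 1.08 for S100B, and for the S100 genes the highest 2 points are siNC replicate 3 and siGFPT2 replicate 2.

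Among the S100 genes, S100A11, a keratinocyte and epithelial growth regulator that partners ANXA1, had the highest level per gene length. Its FPKM was 511, 494 and 859.7 in siNC and 534, 741 and 552 in siGFPT2, which placed it 38th of all features by mean. S100A6 (calcyclin), which was first cloned as a gene of growing cells, stood at 454, 384 and 768 in siNC and 428, 637 and 423 in siGFPT2. For both genes siNC replicate 3 was the highest library, siGFPT2 replicate 2 came next, and the remaining 4 libraries of both groups lay close together, so the groups overlapped. S100A10, the calcium-independent light chain of the ANXA2 heterotetramer, stood at 183, 225 and 400.4 FPKM in the siNC libraries and 236, 326 and 243 in siGFPT2. The same 2 libraries were its highest, and siNC replicate 1 was its lowest.

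The group means of these genes differed by far less than the spread within a group. S100A11 averaged 622 ± 206 FPKM (SD, n = 3, as for all means below) under siNC and 609 ± 115 under siGFPT2, giving a log2 fold change of 0.002 with a 95% interval of -0.61 to 0.61. S100A6 averaged 535 ± 204 and 496 ± 122, with a log2 fold change of -0.07 (-0.78 to 0.63), and S100A10 averaged 269 ± 115 and 268 ± 49.98, with 0.06 (-0.66 to 0.78). Over all libraries the ratio of highest to lowest was 2.19 for S100A10, 2.00 for S100A6 and 1.74 for S100A11.

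S100A16, which is widely expressed and binds calcium through 1 functional EF-hand per subunit, was the only other S100 gene above 20 FPKM. It stood at 61.4, 54.9 and 86.0 FPKM in the siNC libraries and 59.4, 80.0 and 63.6 in siGFPT2 (log2 fold change 0.02, -0.46 to 0.50), and the groups overlapped. The epithelial genes S100A2, a nuclear S100 protein of basal cells, and S100A14 followed. S100A2 was 9.97, 10.04 and 17.0 FPKM in the siNC libraries and 9.40, 15.4 and 10.1 in siGFPT2 (-0.08, -0.73 to 0.58). S100A14 was 7.89, 7.94 and 11.5 in siNC and 8.13, 10.7 and 7.76 in siGFPT2 (-0.03). In each of them 4 libraries lay close together and siNC replicate 3 and siGFPT2 replicate 2 lay above them. Of 9 keratinocyte markers 7 were under 1 FPKM on average, and the 9 summed to 10.8 to 18.5 FPKM in the siNC libraries and 11.5 to 15.3 in siGFPT2. Most of this sum was KRT10, at 9.15, 9.33 and 15.2 in siNC and 10.3, 14.1 and 10.5 in siGFPT2. Of the 2 markers that were tested, the basal keratin KRT14 had an unadjusted p under 0.05, at 0.040, 5.14 and 1.39 FPKM in the siNC libraries and 0, 0.016 and 0.020 in siGFPT2 (unadjusted p = 0.034, limma adjusted p = 1.00). KRT14 passed the filter only through the siNC libraries, above all replicate 2 (group means 2.19 and 0.012 FPKM), so this p is no fair test. Its partner keratin KRT5, too low to be tested and named after its values were seen, was 0.022, 1.02 and 0.632 in siNC and 0.011, 0.009 and 0.044 in siGFPT2. KRT14 and KRT5 were both highest in siNC replicate 2, and the part of these keratins in the S100A2 level was not tested.

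S100A13, which takes part in the release of fibroblast growth factor 1, stood at 6.45, 6.28 and 11.9 FPKM in the siNC libraries and 6.85, 8.91 and 7.30 in siGFPT2 (-0.04). Its value is uncertain: in GENCODE 29 its exons overlap those of S100A1 on the opposite strand by 235 bases and a processed transcript on the same strand by 536 bases, and the strand setting of the counting is not given in the sources used here. S100A3, a cysteine-rich S100 protein known from hair cuticle, was 3.49, 4.34 and 5.34 FPKM in the siNC libraries and 4.61, 5.76 and 4.66 in siGFPT2, with group means of 4.39 ± 0.924 and 5.01 ± 0.653 (log2 fold change 0.20, -0.24 to 0.64). Its siGFPT2 libraries lay within or just above the siNC range. S100A4 (metastasin), the S100 gene most often tied to motility and a marker of mesenchymal cells, was low in this line, at 1.91, 2.41 and 4.49 FPKM in the siNC libraries and 2.56, 3.07 and 2.05 in siGFPT2 (-0.12, -0.88 to 0.64). The fibroblast markers COL1A1, COL1A2, COL3A1, DCN, LUM and PDGFRB together summed to 8.74 to 10.7 FPKM in the siNC libraries and 9.13 to 13.1 in siGFPT2, with 2 of 6 above 1 FPKM and none at 0 in all libraries.

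S100A8 and S100A9 pair to form calprotectin, the abundant antimicrobial protein of neutrophils, and the pair was not balanced here. S100A9 stood at 1.26, 1.67 and 2.78 FPKM in the siNC libraries and 2.54, 3.08 and 1.81 in siGFPT2, and 180 fragments were counted over the 6 libraries. S100A8 rested on 5 fragments in all 6 libraries and was at most 0.051 FPKM in any. S100A9 had the highest fold change and the smallest p of the members, with means of 1.90 ± 0.784 and 2.47 ± 0.636 FPKM and a log2 fold change of 0.40 ± 0.32 (SE; -0.36 to 1.15; unadjusted p = 0.249, limma adjusted p = 1.00). Among the 21 tested members its level also varied most between libraries, by 2.44-fold from lowest to highest, and its groups overlapped. Without siNC replicate 3 its log2 fold change was 0.70 (unadjusted p = 0.028, limma adjusted p = 0.812). Of 10 myeloid markers 2 were above 1 FPKM, and their sum was 7.86 to 8.68 FPKM in the siNC libraries and 8.04 to 8.53 in siGFPT2. None of the 10 was at 0 in all libraries, and their part in the S100A9 level was not tested.

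S100P, a member raised in several carcinomas, and S100B, the S100 protein of glia and melanocytes, closed the tested list. S100P was 1.06, 1.16 and 2.25 FPKM in the siNC libraries and 1.12, 1.95 and 1.91 in siGFPT2. It rested on 106 fragments, a number that may be too low because the recovered gene length of 471 bases lies well under the 1280 of GENCODE 29 (log2 fold change 0.18, -0.62 to 0.99). S100B was 0.951, 0.961 and 1.36 in siNC and 0.609, 1.32 and 1.30 in siGFPT2 from 278 fragments (-0.07). Both intervals are wide, and for each gene values of the groups interleaved. Of 5 melanocyte and glial markers 2 were above 1 FPKM, with sums of 8.42 to 10.2 FPKM in the siNC libraries and 6.55 to 11.7 in siGFPT2.

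The remaining 7 S100 genes had means under 1 FPKM and were not tested. S100A1, best known from heart muscle, was 0.320 to 0.407 FPKM and S100A5 was 0.281 to 0.349 over the 6 libraries. S100A1 shares exonic bases with S100A13 and with an antisense gene (320 bases), so its level is uncertain too. S100A7 (psoriasin), a skin antimicrobial gene, had 4 fragments in all, and S100Z had 1. S100A12, a neutrophil gene, and S100G (calbindin D9k), an intestinal calcium carrier, were at 0 in every library, which allows up to 0.0412 FPKM for S100A12 and 0.0469 for S100G (3 fragments over the 6 libraries together, at the GENCODE 29 length, counting error only). The S100-fused genes of the skin barrier (FLG, FLG2, HRNR, RPTN, TCHH, TCHHL1 and CRNN), which carry an S100 domain within a long protein, were also low: 0 of 7 reached a mean of 1 FPKM, and their sum was 0.35 to 0.653 FPKM in the siNC libraries and 0.433 to 0.621 in siGFPT2.

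**Figure D2:**
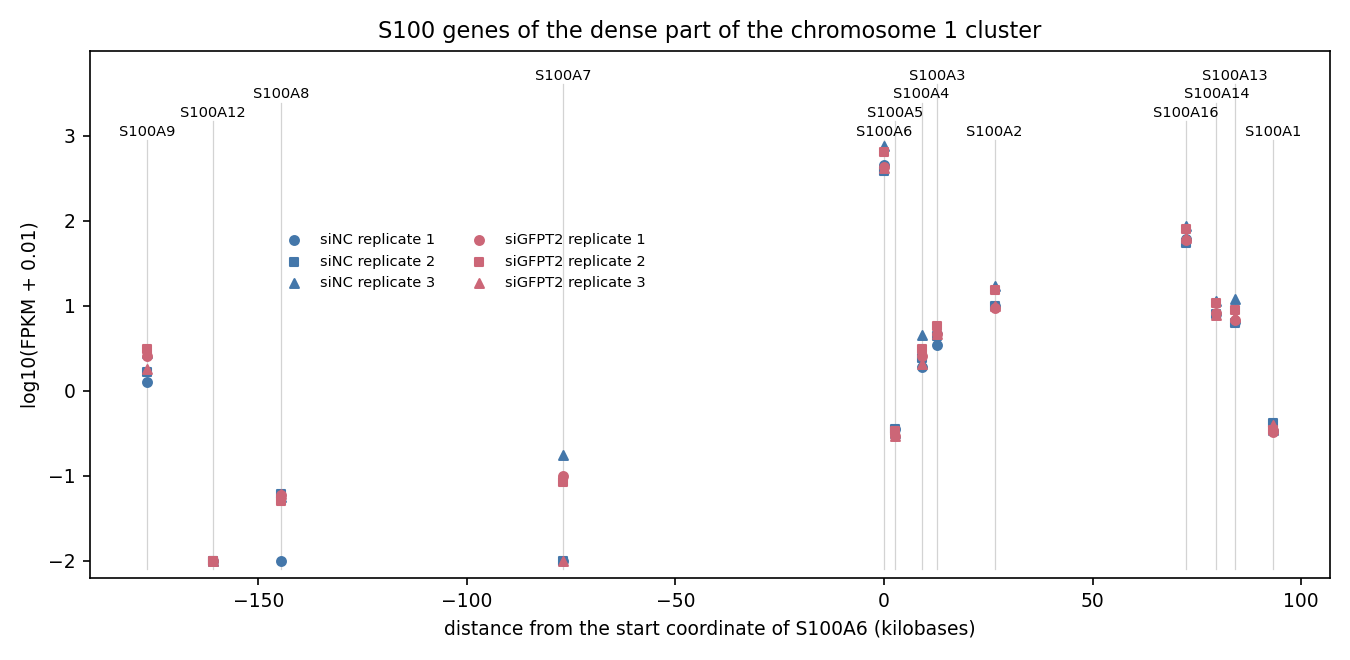
Level of the S100 genes of the dense stretch of chromosome 1 in each of the 6 libraries, as log10(FPKM + 0.01), against distance in kilobases from the start coordinate of S100A6 in GENCODE 29. S100A6 stands at the top while S100A5, whose start coordinate is 2.55 kilobases away, lies under 1 FPKM, and S100A12 sits at the floor in all 6 libraries.

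Most S100 genes lie in 1 cluster on chromosome 1, and neighbours in it differed widely in level. In GENCODE 29 (GRCh38, which may not be the build the authors used), S100A6 occupies chr1:153534599-153536244 on the minus strand. Measured between start coordinates, the lower ends of the genes, S100A5 lies 2.55 kilobases and S100A4 9.01 kilobases above it. S100A3 and S100A2 lie at 12.7 and 26.5 kilobases. Mean FPKM along that stretch went from 516 for S100A6 to 0.317 for S100A5, 2.75 for S100A4, 4.70 for S100A3 and 11.98 for S100A2. S100A16, S100A14, S100A13 and S100A1, between 72.3 and 93.3 kilobases, fell in that order from 67.5 to 0.353 FPKM. On the other side, S100A9, S100A12, S100A8 and S100A7, the myeloid and skin genes between 177 and 76.9 kilobases below S100A6, were each at 2.19 FPKM or less. The highly expressed S100A10 and S100A11 lie outside this stretch, 1552 and 1502 kilobases below S100A6.

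Upstream sequences of 2 high members and of 1 without fragments are shown as examples of the range of composition. RefSeq promoters (GRCh38.p14, 250 bases before the start site) were found for 28 of the 30 members. Capitals mark TATAAA, the TATA box letters, or GGGCGG, the GC box letters, searched on both strands, where a match on the other strand reads TTTATA or CCGCCC. S100A11 and S100A6 are the highest members by FPKM, and S100A12 had no fragment. The windows are chr1:152037005-152037254, chr1:153535992-153536241 and chr1:153375622-153375871, all on the minus strand.
S100A11: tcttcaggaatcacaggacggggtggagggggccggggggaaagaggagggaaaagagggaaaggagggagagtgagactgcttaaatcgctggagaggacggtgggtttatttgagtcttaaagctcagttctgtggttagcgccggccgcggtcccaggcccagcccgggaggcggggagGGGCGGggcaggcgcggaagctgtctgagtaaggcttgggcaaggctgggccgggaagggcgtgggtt
S100A6: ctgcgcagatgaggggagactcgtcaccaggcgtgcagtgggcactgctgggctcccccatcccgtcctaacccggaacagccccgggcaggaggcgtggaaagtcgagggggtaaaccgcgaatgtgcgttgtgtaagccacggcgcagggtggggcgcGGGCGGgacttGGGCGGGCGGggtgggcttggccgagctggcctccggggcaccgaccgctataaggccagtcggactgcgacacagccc
S100A12: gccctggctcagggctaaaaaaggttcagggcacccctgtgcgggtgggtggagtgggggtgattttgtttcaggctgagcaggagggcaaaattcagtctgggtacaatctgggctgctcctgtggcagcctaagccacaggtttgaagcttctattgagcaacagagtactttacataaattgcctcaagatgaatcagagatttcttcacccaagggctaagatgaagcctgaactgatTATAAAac

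The S100A11 window holds 15 CG dinucleotides and the S100A6 window 24, both with GGGCGG and without TATAAA, whereas that of S100A12 holds 1, with TATAAA and without GGGCGG. Counted by window, since some members have more than 1 annotated start, GGGCGG occurred in 14 of the 28 windows of members with a mean of at least 1 FPKM and in 0 of the 11 windows of members below it. TATAAA occurred in 7 of the 28 and 7 of the 11. Among all 35116 RefSeq windows of this length, 42.6% hold GGGCGG and 10.7% hold TATAAA, and the median CG count is 11. The low members are 8 genes, and the 3 windows of S100A8 overlap one another. The windows of the 8 low members held at most 6 CG, but so did every window of 8 of the 20 higher members (ANXA1, S100A16, S100A2, S100A14, S100A3, ANXA9, S100A9 and S100P), so a low CG count was not particular to the low members. ANXA1, among the most abundant members, has 0 CG, a TATAAA and no GGGCGG, while ANXA2 has 28 CG and both motifs. These matches describe letters, not binding.

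Among the annexins, ANXA2, the heavy chain of the complex with S100A10 and a cell-surface plasminogen-binding protein, had the highest level. It stood at 202, 191 and 272 FPKM in the siNC libraries and 206, 251 and 212 in siGFPT2, with means of 221 ± 43.7 and 223 ± 24.5 (log2 fold change 0.02, -0.39 to 0.43). ANXA1, a glucocorticoid-regulated anti-inflammatory annexin that acts on formyl peptide receptors, was 139.7, 148 and 183 in siNC and 159, 179.95 and 172 in siGFPT2. Its means were 157 ± 22.7 and 170.1 ± 10.6, a log2 fold change of 0.12 ± 0.14 (SE; -0.20 to 0.45). The siGFPT2 libraries of ANXA1 all lay above siNC replicates 1 and 2 and below siNC replicate 3, so the groups overlapped. ANXA5, the phosphatidylserine-binding protein used to stain apoptotic cells, was 82.2, 90.2 and 111 FPKM in the siNC libraries and 95.1, 105 and 95.9 in siGFPT2 (0.07, -0.26 to 0.41).

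Reads of ANXA2 cannot be fully told from those of its processed pseudogene copies, which is shown on the sequences because it bears on the level of the leading annexin. In GENCODE 29 the 1017 coding bases of ANXA2 align to ANXA2P2 with 1001 identical bases (98.4%) and 0 gaps, and the longest identical run is 221 bases. Along the 1017 aligned bases, windows of 50 bases that are identical in both number 575, windows of 100 bases 287 and windows of 150 bases 115. The stretch from base 29 to base 178 of the ANXA2 coding sequence and its ANXA2P2 counterpart, both written 5′ to 3′, differs at the 2 bases in capitals.
ANXA2: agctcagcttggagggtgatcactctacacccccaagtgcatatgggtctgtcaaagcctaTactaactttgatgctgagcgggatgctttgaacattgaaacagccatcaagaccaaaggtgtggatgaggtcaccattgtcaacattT
ANXA2P2: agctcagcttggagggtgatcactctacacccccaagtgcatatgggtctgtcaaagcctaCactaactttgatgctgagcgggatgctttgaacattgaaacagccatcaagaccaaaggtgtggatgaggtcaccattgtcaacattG

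ANXA2P2 stood at 126, 117 and 170.3 FPKM in the siNC libraries and 126, 154 and 139 in siGFPT2 (log2 fold change 0.03). Its fragments were 5.52%, 5.42% and 5.53% of those of ANXA2 in siNC and 5.41%, 5.40% and 5.78% in siGFPT2, so they moved with ANXA2 from library to library. Of the other copies, ANXA2P1 averaged 1.03 FPKM and ANXA2P3 rested on 2 fragments. How reads that match more than 1 place were counted is not given in the sources used here.

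ANXA7, ANXA3 and ANXA11 formed a middle tier. ANXA7 (synexin), a membrane-fusion annexin, was 38.6, 38.2 and 41.7 FPKM in the siNC libraries and 41.0, 43.3 and 43.9 in siGFPT2, with means of 39.5 ± 1.89 and 42.7 ± 1.53 (log2 fold change 0.11 ± 0.10 SE, -0.12 to 0.34; unadjusted p = 0.286, limma adjusted p = 1.00). Only siNC replicate 3 reached into its siGFPT2 range. ANXA7 shares 105 exonic bases with an antisense gene and is uncertain to that extent. ANXA3 was 27.3, 28.5 and 32.9 FPKM in the siNC libraries and 29.9, 32.5 and 31.7 in siGFPT2 (0.09), and ANXA11, which tethers RNA granules to lysosomes, was 26.7, 25.9 and 30.9 in siNC and 26.4, 29.8 and 26.3 in siGFPT2 (-0.02). The groups overlapped for both.

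ANXA4, ANXA9 and ANXA6 were low. ANXA4, a kidney and secretory epithelium annexin, was the steadiest member, at 5.51, 5.73 and 5.35 FPKM in the siNC libraries and 5.38, 5.26 and 5.58 in siGFPT2, a ratio of highest to lowest of 1.09 (log2 fold change -0.03, -0.27 to 0.21). ANXA9, whose calcium-binding sites are degenerate, was 3.09, 3.29 and 2.82 in siNC and 2.955, 3.39 and 3.79 in siGFPT2 (0.13). ANXA6, the annexin with a doubled core, was 2.61, 2.23 and 2.55 in siNC and 2.19, 2.30 and 2.49 in siGFPT2 (-0.08). In none of them did the groups separate. ANXA10 (23 fragments) and ANXA13 (13 fragments), gastric and intestinal annexins, stayed under 0.125 FPKM in every library and were not tested.

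The order of the members by FPKM was stable in its upper part. For 13 of the 20 neighbouring pairs the higher gene was higher in 6 of 6 libraries, among them S100A11 over S100A6 and S100A6 over S100A10. S100A10 exceeded ANXA2 in 5 of 6. The order did not hold in every library for S100A14 and S100A13 (5 of 6), ANXA4 and S100A3 (5), ANXA9 and S100A4 (5), S100A4 and ANXA6 (4), ANXA6 and S100A9 (3) or S100A9 and S100P (5).

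This order depends on the gene length by which fragments are divided. The FPKM of ANXA2 rests on a length of 11574 bases, recovered from the steps of its values, while its principal mRNA among 38 GENCODE 29 transcripts has 1676 bases. With the length of the principal mRNA in place of the gene length, an alternative chosen after seeing the data, ANXA2 moved from the fourth place to the first at 1534 fragments per kilobase of mRNA, scaled as FPKM, above S100A6 at 744, S100A11 at 672, ANXA1 at 329.6 and S100A10 at 226. ANXA2 had 364612 fragments over the 6 libraries, against 71597 for S100A6 and 56949 for S100A11. On either scale the same 6 genes (S100A6, S100A10, S100A11, ANXA1, ANXA2 and ANXA5) led the families. ANXA4 and S100A13 are the other tested members whose FPKM rests on a length over 3 times that of the mRNA, 11060 against 2799 and 2216 against 686 bases, and the same holds for the untested S100A1, with 3030 against 594. The order of the families turned as well: per principal mRNA length the tested annexins summed to 2231 on average and the tested S100 genes to 1811, with the annexin sum higher in 6 of 6 libraries, although in siNC replicate 3 only by 2647 to 2607. Apart from the small pseudocount, fold changes between groups do not depend on the length, which is the same in every library.

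**Figure D3:**
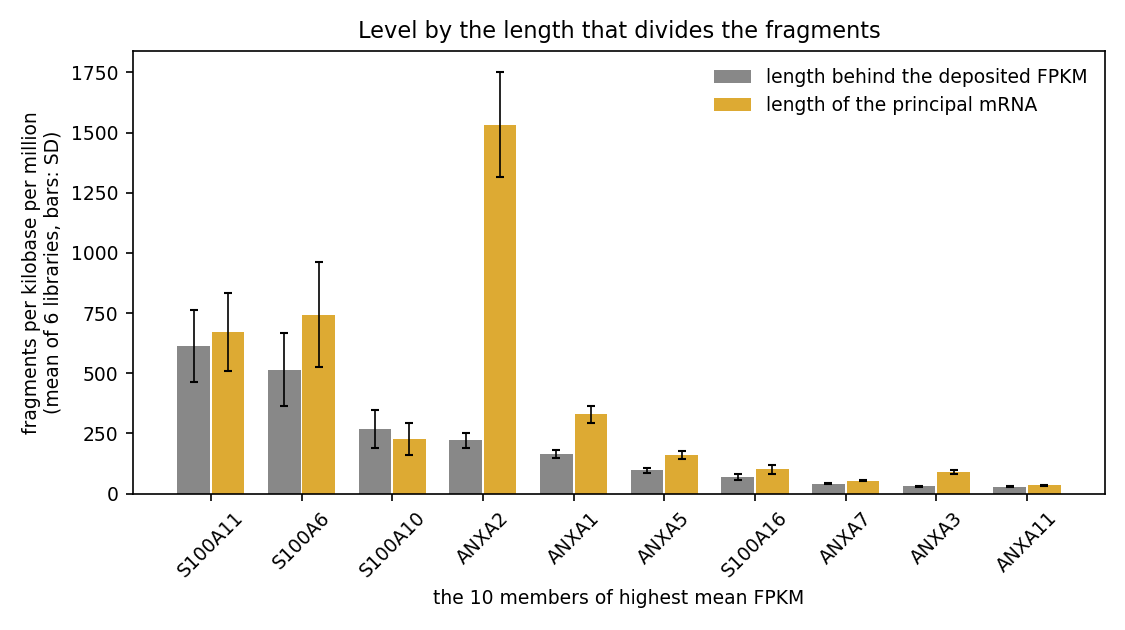
Mean level over the 6 libraries of the 10 members of highest mean FPKM, as bars on a linear axis with the SD. Each member has a bar per gene length as deposited (FPKM) and a bar per length of the principal GENCODE 29 mRNA. ANXA2 differs most between the lengths, at 222 and 1534, and S100A10 is lower per mRNA length, at 269 and 226.

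The complexes of the families were compared as ratios of FPKM within each library. S100A10 to ANXA2, the subunits of the heterotetramer, stood at 0.906, 1.18 and 1.47 in siNC and 1.15, 1.30 and 1.15 in siGFPT2, with means of 1.19 ± 0.284 and 1.20 ± 0.0872. S100A11 to ANXA1 was 3.66, 3.33 and 4.71 in siNC and 3.36, 4.12 and 3.22 in siGFPT2. S100A6 to ANXA11 was 17.0, 14.8 and 24.9 in siNC and 16.2, 21.4 and 16.1 in siGFPT2. In all of them siNC replicate 3 and siGFPT2 replicate 2 had the highest ratios and the groups overlapped. The widest move was that of S100A10 against AHNAK, the giant scaffold that binds the S100A10-ANXA2 complex and whose counted length is 19466 bases: the ratio was 3.40, 3.60 and 18.4 in siNC and 4.50, 12.4 and 4.74 in siGFPT2, since AHNAK was low (21.7 and 26.2 FPKM) in the libraries in which S100A10 was high. The absolute ratios carry the dependence on gene length given above, and mRNA ratios are not protein ratios.

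Members with short mRNAs varied most between libraries, and siNC replicate 3 and siGFPT2 replicate 2 were high for most of them. siNC replicate 3 and siGFPT2 replicate 2 were the 2 highest libraries for 12 of the 12 tested S100 genes and for 5 of the 9 annexins. The same was true of 29.8% of all features tested, of 84.0% of 532 protein-coding genes with a principal mRNA under 1000 bases, of 68.5% of 2140 genes at 1000 to 2000 bases, of 25.3% of 4284 genes at 2000 to 4000 bases and of 5.77% of 3724 longer genes. Measured from each gene's mean log2 level, the median S100 gene stood at -0.25, -0.24 and 0.53 in siNC and -0.17, 0.31 and -0.11 in siGFPT2. The median of the protein-coding genes under 1000 bases stood at -0.16, -0.26 and 0.45 in siNC and -0.16, 0.29 and -0.13 in siGFPT2, on the same side of 0 as the S100 median in each library. S100A10, S100A14, S100A16 and S100P, at 1146 to 1279 bases, fall in the next class. In siNC replicate 3 and siGFPT2 replicate 2 its medians were 0.24 and 0.16. These S100 genes stood at 0.37 to 0.62 and 0.26 to 0.35 there. The median annexin moved less, at -0.09, -0.09 and 0.11 in siNC and -0.03, 0.10 and 0.06 in siGFPT2.

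The median SD of log2 levels over the 6 libraries was 0.38 for the S100 genes and 0.11 for the annexins, beside 0.21 for all features tested, 0.32 for protein-coding genes under 1000 bases and 0.14 at 2000 to 4000 bases. Over the 21 tested members the SD fell with the principal mRNA length (Spearman's rho -0.81, given as a description, since the members share the same 6 libraries). By principal mRNA length ANXA11 is an exception to the length order. This length, 6965 bases, is that of the transcript picked as principal among 10 annotated ones. Which of them these cells express was not tested. AHNAK has a principal mRNA of 1024 bases, against a counted length of 19466, so such a pick can be far off. The deviations of ANXA11 were 0.16 in siNC replicate 3 and 0.11 in siGFPT2 replicate 2, on the side of the short mRNAs. Genes of 4000 bases or more had medians of -0.34 and -0.20 in the same libraries. What sets these 2 libraries apart was not tested.

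**Figure D4:**
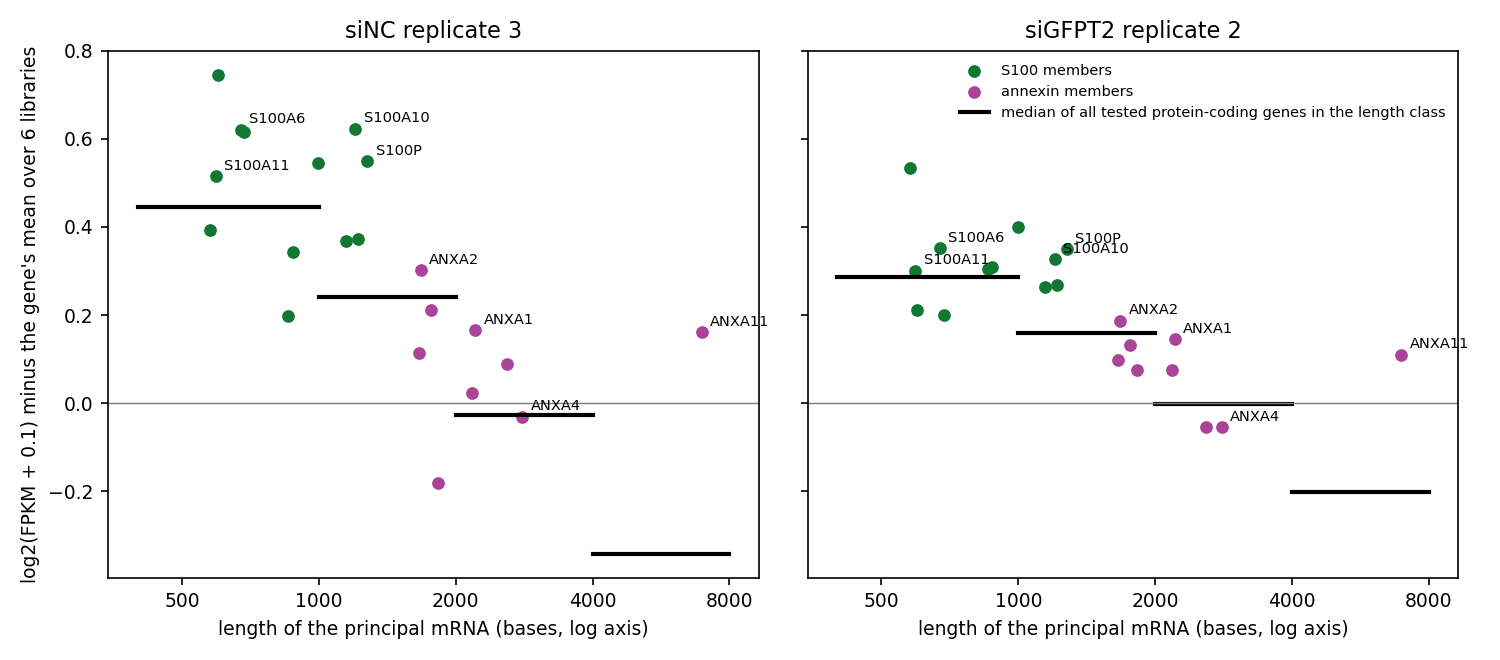
Deviation of each tested member from its mean log2 level in siNC replicate 3 and siGFPT2 replicate 2, against principal mRNA length in bases on a log axis, with points for members and horizontal lines for the medians of all protein-coding genes in 4 length classes, the last of which (4000 bases or more) is drawn up to an arbitrary end. Members under 1000 bases lie between 0.20 and 0.75. ANXA11, at 6965 bases, lies at 0.16 and 0.11 while the line of its class is at -0.34 and -0.20. Its place on the length axis rests on the transcript picked as principal, and which transcript these cells express was not tested.

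For siGFPT2 against siNC, none of the 21 tested members passed the test. With limma on log2(FPKM + 0.1) and Benjamini-Hochberg adjustment over all 12896 features, 0 members and 0 features (0%) passed an adjusted p of 0.05, and every member had an adjusted p of 1.00. At an unadjusted p under 0.05 there were 0 members, against 0.651% of all features (84), and the groups did not overlap for 0 members, against 3.53% of all features. Of the log2 fold changes 12 were above 0 and 9 below, from -0.12 for S100A4 to 0.40 for S100A9. The S100 genes were divided 6 and 6 with a median of -0.01 and the annexins 6 and 3 with a median of 0.07, beside 7922 and 4974 with a median of 0.03 over all features. Counts this near the background are no result about the members.

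The intervals bound what could have gone unseen. A change of 2-fold up or down lay outside the 95% interval for 20 of the 21, all but S100A9, and one of 1.5-fold for 11, which include all 9 annexins. For S100A11, S100A6 and S100A10 a change of 1.5-fold in either direction remains within the interval. A p that misses the threshold does not show that the levels are equal.

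**Figure D5:**
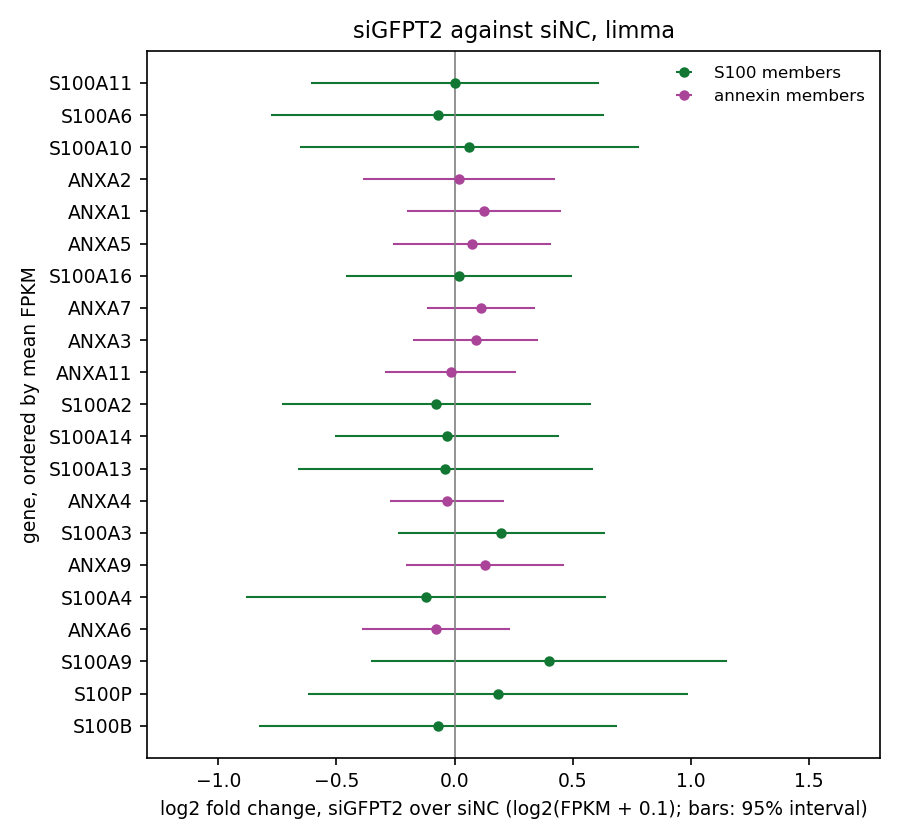
Log2 fold change of siGFPT2 over siNC for the 21 tested members on the log2(FPKM + 0.1) scale, with 95% intervals from limma (n = 3 per group), ordered by mean FPKM. All 21 intervals include 0, and that of each S100 gene is wider than that of any annexin.

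The wider pathway was measured by lists of receptors, plasminogen activators, other calcium sensors and membrane-repair genes, in which 0 genes passed the adjusted test and 0 had an unadjusted p under 0.05. Of 10 receptors of extracellular S100 and annexin proteins, 6 were tested, with 3 fold changes above and 3 below 0 and a median of -0.02. BSG (basigin), a receptor of S100A9, averaged 164 ± 21.5 FPKM in the siNC libraries and 156 ± 17.4 in siGFPT2 (log2 fold change -0.07), and NPTN, a receptor of S100A8, averaged 63.2 ± 12.5 and 64.2 ± 9.68 (0.03). AGER, which encodes the receptor RAGE, was 2.66, 2.71 and 3.33 FPKM in the siNC libraries and 2.33, 2.69 and 2.61 in siGFPT2 (-0.18), with overlapping groups. FPR1, a receptor of ANXA1, averaged 1.37 FPKM. AGER and FPR1 were named after their values were seen.

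In the plasminogen activation list, which holds genes that act beside the S100A10-ANXA2 complex, 7 of 8 were tested, 6 above and 1 below 0, with a median of 0.02. ENO1, a glycolytic enzyme that also binds plasminogen at the cell surface, averaged 621 ± 112.5 and 623 ± 67.8 FPKM (0.02). PLAU, the urokinase gene, averaged 97.2 ± 3.12 and 97.8 ± 4.12 (0.01). Of 23 other EF-hand sensors 18 were tested, 11 above and 7 below 0, with a median of 0.04; CIB1 averaged 195 ± 65.1 and 186 ± 37.1 FPKM (-0.04) and the calpain small subunit gene CAPNS1 129.7 ± 19.4 and 121 ± 12.3 (-0.09). Of 15 genes of membrane repair and calcium-dependent membrane binding 13 were tested, 9 above and 4 below 0, with a median of 0.09. There CHMP4B, a subunit of the ESCRT-III machinery that reseals membranes, averaged 112 ± 22.3 and 111 ± 14.7 FPKM (0.004), and MYOF (myoferlin) averaged 82.4 ± 26.7 and 85.7 ± 19.0 (0.09).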

How the data were processed

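RNA of 6 NCI-H1975 samples was sequenced. The authors deposited FPKM per gene and library in 1 table; HISAT2, featureCounts and DESeq2 were used, per the submitters' processing notes, without versions, and the genome build is not given in the sources used here, nor is the annotation. Columns were tied to samples by name. Ensembl identifiers were matched to symbols in a gene name table (60463 of 60605).

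Fragments and depth were recovered from the steps of the FPKM values, which gave whole fragments within 0.0001 for all but 1 of 36981 features above 0. The GENCODE 29 exon length was used where it gave whole fragments (19937 features, 9 members) and otherwise the smallest length that did (17043 features, 19 members), which can be too short and then understates fragments and the level per mRNA length. Recovered fragments summed to 99.77% to 99.81% of the depth. A fragment is not an independent molecule, so limits from counts cover counting error only.

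The groups were compared with limma 3.58.1 in R 4.3.3 on log2 of the deposited FPKM plus 0.1, two-sided, with a mean-variance trend and group as the only term, over the 12896 features that averaged at least 1 FPKM. P-values were adjusted by Benjamini-Hochberg over all of them with a threshold of 0.05. Fold changes are differences of log2(FPKM + 0.1), so changes of low genes come out too small. The fit was tested on simulated counts. They lacked the length-dependent shift of siNC replicate 3 and siGFPT2 replicate 2, so the test does not cover such libraries. All members were to be named, with the ANXA2 copies, the 2 most abundant genes of each further list and any list gene with an unadjusted p under 0.05. The members and the gene lists were chosen with earlier results of these data known, so no p over a list is given. Principal mRNAs, overlaps and positions come from GENCODE 29 and promoters from RefSeq, on GRCh38. The alternatives were another pseudocount, no filter, median centring, a replicate block, limma-voom on recovered fragments, a length covariate, leaving out libraries, and the mRNA length.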

Additional observations from a re-analysis of the deposited data

How the results depend on the processing

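Under all 13 alternatives to the test 0 features passed an adjusted p of 0.05 by limma. The number of features at an unadjusted p under 0.05, 84 in the comparison as reported, lay between 49 (without siGFPT2 replicate 3) and 754 (no filter on low values); it was 60 with limma-voom on recovered fragments, 704 with the length slope as a covariate, 515 without siNC replicate 3 and 158 without siNC replicate 2. With 1 library left out, 0 to 1 members had an unadjusted p under 0.05 (S100A9 without siNC replicate 3). With both libraries that stand apart left out, 1 did, ANXA1 (log2 fold change 0.20, unadjusted p = 0.048, limma adjusted p = 0.724), and S100B fell below the filter.

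Fold changes near 0 changed sign. Median centring gave -0.051 for S100A11, -0.034 for S100A16 and -0.033 for ANXA2, and the length covariate gave -0.002 for S100A11. Leaving out both libraries gave 0.088 for S100A4, 0.027 for S100A6, 0.15 for S100A13, 0.005 for S100A14 and 0.001 for ANXA11. With 1 library left out, the log2 fold change ranged from -0.176 to 0.389 for S100A10, -0.148 to 0.26 for S100A11, -0.115 to 0.208 for S100A16, -0.009 to 0.504 for S100P, -0.296 to 0.178 for S100A2, -0.372 to 0.223 for S100A4, -0.278 to 0.221 for S100A6, -0.197 to 0.26 for S100A13, -0.173 to 0.147 for S100A14, -0.24 to 0.262 for S100B, -0.077 to 0.176 for ANXA2, -0.023 to 0.196 for ANXA5 and -0.075 to 0.06 for ANXA11. The cause was not tested. The other 8 members kept their sign in every alternative, and GFPT2 stayed between -0.208 and -0.06.

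Same-numbered samples did not deviate together throughout, with correlations of 0.473, -0.719 and -0.57. The highest correlation, 0.792, was between siNC replicate 3 and siGFPT2 replicate 2. Since these 2 libraries weigh on the correlations, the values cannot tell whether cultures were paired by number. With a replicate block 0 members had an unadjusted p under 0.05 and 63 features did. Among tested members depth limits S100A9, S100P, S100B and S100A4 most, with 106 to 371 fragments over 6 libraries.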
